A study of Caenorhabditis elegans with 8 samples.

Results

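Molecular chaperones were followed in Caenorhabditis elegans worms mutant for ercc-1 and in wild type N2, the laboratory strain whose background the mutant carries. The chaperones were taken as the genes that the platform annotation names dnj or cct with a number, together with hsp-1, hsp-3, hsp-4, hsp-6, hsp-60, hsp-70, hsp-90 and hsp-110. The alias daf-21 of hsp-90 did not occur in that annotation. This gave 45 of the 17118 genes that a probe set of a single gene measured, and each gene was represented by its probe set of highest mean over the 8 arrays. ERCC-1 is a subunit of a nuclease of nucleotide excision repair, and the labels call the mutant deficient in that pathway without naming its allele. Both strains were grown for 3 to 4 days as cultures of mixed stage, fed E. coli HT115(DE3) with the plasmid pL4440. Total RNA was hybridised to 1-colour Affymetrix arrays, 4 for each strain. Nothing in the labels gives a temperature, a heat shock or another stress. The labels do not tie replicates to separate cultures, so every p-value rests on a spread between arrays that may be technical. The comparison addresses whether transcripts of the folding machinery differ between this mutant and wild type, and it is given by compartment.

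HSP70 proteins bind exposed hydrophobic stretches of unfolded proteins and release them in cycles of ATP hydrolysis. J-domain proteins, named DNJ in this worm, deliver substrates and start that hydrolysis, and nucleotide exchange factors such as HSP110 reset the cycle. HSP90 completes the maturation of kinases and receptors. HSP60 in mitochondria and the CCT complex in the cytosol are barrel-shaped chaperonins that enclose their substrates, and actin and tubulin are the best known substrates of CCT. The cytosol, the endoplasmic reticulum (ER) and the mitochondria each hold an HSP70 of their own. In worms hsp-4 is the usual reporter gene for unfolded proteins in the ER, hsp-6 and hsp-60 are those for the mitochondria, and hsp-70 is strongly induced by heat.

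For ercc-1 itself the mean was 9.84 ± 0.074 over the mutant arrays and 9.85 ± 0.124 over those of wild type (SD, n = 4 each). Where its probes sit in the gene is not known here, so it does not check the labels. Array medians lay between 7.44 and 7.59 on the log2 scale in the mutant and between 7.39 and 7.44 in wild type. Mutant replicates 1 and 4 were the least alike pair of arrays in the mutant group (correlation 0.9776 over all probe sets). Markers of muscle, pharynx, intestine, neurons, germline and oocytes all had means above 6.425, below which the dimmest 25% of probe sets fall, while 1 of the 3 embryo markers lay below it. The 23 genes of major sperm protein (msp) averaged 12.42 on mutant replicate 4, between 11.58 and 11.66 on the other mutant arrays, and between 10.61 and 10.86 in wild type. In RNA of whole worms, a different number of cells of a type and a different RNA content per cell cannot be told apart.

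No chaperone transcript of any compartment passed the test between mutant and wild type. Of the 45 genes, 0 were called by limma at an adjusted p under 0.05, where 0.672% of all 17118 genes were called. At an unadjusted p under 0.05 there were 3 genes, against 10.5% of all genes. On the higher side these were hsp-70 and dnj-8, where 8.27% of all genes fell, and on the lower side dnj-18, where 2.24% fell. The values of mutant and wild type did not overlap for 2 of the 45, against 6.88% of all genes. These were dnj-8, higher in the mutant (5.01% of all genes were), and dnj-18, lower in it (1.87% were). The shares over both directions do not exceed those of the whole array. The count at an unadjusted p under 0.05 was 0 without mutant replicate 2 and 1, dnj-8, without wild-type replicate 3. It was 4 without mutant replicates 1 and 4 together, an alternative added after the data were seen.

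The log2 differences, mutant minus wild type, ran from -0.19 for hsp-6 to 0.22 for hsp-70, with a median of -0.02 over the 45 chaperones and 0.03 over all genes. The 95% confidence intervals, which are not adjusted for the number of genes, lay between -0.43 and 0.48. All 45 thus kept within 0.5 of 0 on the log2 scale, a 1.41-fold change in either direction, as did 83.8% of all genes. These shares are not matched for level, since 1 of the 45 had a mean below 6.425, against 4265 of all 17118 genes. Whether chaperones differ in this from genes of like level was not tested. Below wild type lay 28 of the 45, above it 16, and dnj-11 read the same mean in both groups. Among all genes 39.7% lay below wild type. These tallies moved with the scaling, to 39 below and 6 above after median centring and 38 below and 7 above after quantile normalization. Without 1 array, between 23 (wild-type replicate 1) and 35 (wild-type replicate 3) of the 45 lay below.

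**Figure D1:**
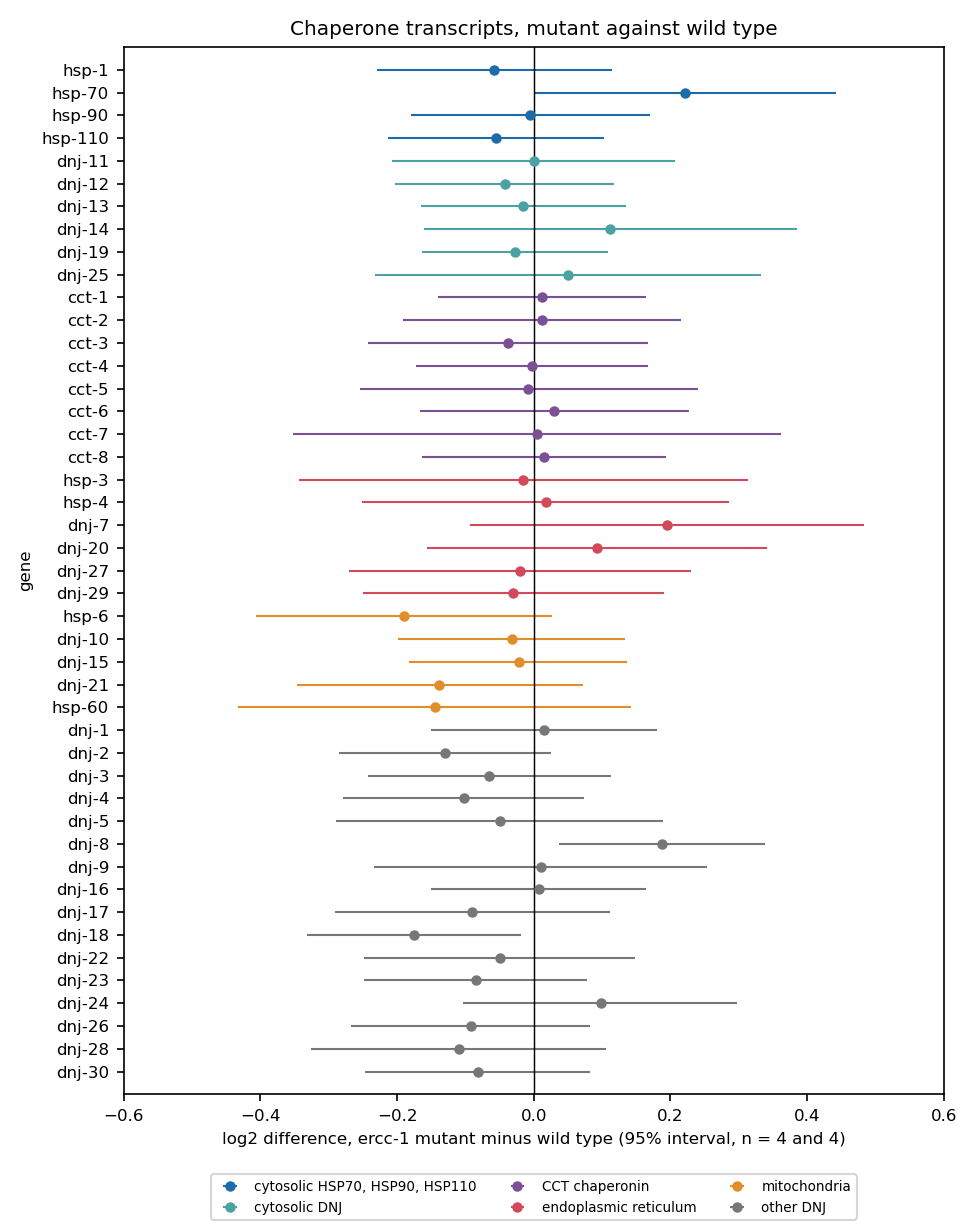
The log2 difference of each of the 45 chaperone genes (x axis, mutant minus wild type) with its 95% confidence interval from limma, 4 arrays in each group, coloured by compartment. The intervals of hsp-70, dnj-8 and dnj-18 are the 3 that leave out 0, and every interval stays within 0.5 of 0.

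In the cytosolic HSP70 and HSP90 group 3 of 4 genes lay within 0.06 of wild type, and the heat-inducible hsp-70 was the other. The constitutive HSP70 gene hsp-1 read 13.31, 13.20, 13.30 and 13.08 in the mutant and 13.34, 13.33, 13.20 and 13.25 in wild type, in the order of replicates 1 to 4 that all lists of values follow. These ranges overlap, and mutant replicate 4 held the lowest value. The log2 difference of hsp-1 was -0.06 (SE 0.076, 95% confidence interval -0.23 to 0.11, adjusted p = 0.875). HSP90, encoded by hsp-90, read 13.35, 13.31, 13.47 and 13.28 in the mutant and 13.45, 13.38, 13.21 and 13.39 in wild type. The mean was 13.35 ± 0.083 against 13.36 ± 0.103 (SD, n = 4 each), a difference of -0.005 with an interval from -0.18 to 0.17. The exchange factor gene hsp-110 differed by -0.06 (SE 0.070, adjusted p = 0.868).

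The heat-inducible hsp-70 had the highest log2 difference of the 45 chaperones. Its values were 6.52, 6.78, 6.58 and 6.43 in the mutant, and 6.23, 6.48, 6.25 and 6.46 in wild type. Mutant replicate 4 lay below wild-type replicates 2 and 4, so the groups overlap. The mean of 6.58 ± 0.148 against 6.36 ± 0.133 (SD, n = 4 each) gave a difference of 0.22 (SE 0.098), a 1.17-fold ratio, with an interval from 0.002 to 0.44. Its adjusted p was 0.503 in limma, and it was 0.0475 only when arrays were weighted, a setting in which mutant replicate 2 had a weight of 5.05 and the other mutant arrays had weights from 0.32 to 0.62. Over all 22548 probe sets the weights raised the calls from 150 to 1423. Without mutant replicate 2 the hsp-70 difference was 0.16, after median centring it was 0.13 and without mutant replicate 4 it was 0.27. Its unadjusted p in limma was under 0.05 in 8 of the 16 alternatives that measured it. The wild-type mean lay below the level of 6.425 that bounds the dimmest 25%, and the suffix _s_at of this probe set says that it may read more than 1 transcript.

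Of the 6 J-domain genes placed in the cytosol 0 were called, with a median difference of -0.008. Those of the DNAJA and DNAJB types, dnj-12, dnj-13 and dnj-19, which hand unfolded clients to HSP70, differed by -0.04, -0.02 and -0.03. The intervals of these 3 lay between -0.203 and 0.135. The ribosome-associated dnj-11 averaged 11.45 in both groups. The gene of the auxilin dnj-25, which takes the clathrin coat off vesicles with HSP70, differed by 0.05 (SE 0.126, adjusted p = 0.944). The gene of the synaptic vesicle protein dnj-14, a cysteine string protein, read 10.22, 10, 9.77 and 9.86 in the mutant and 9.87, 9.60, 10.04 and 9.89 in wild type. Only mutant replicate 1 lay above every wild-type array. The difference was 0.11 (SE 0.121, 95% confidence interval -0.16 to 0.39, adjusted p = 0.837). The 3 neuronal markers, rab-3, snt-1 and unc-104, also averaged highest on mutant replicate 1, at 9.04 against 8.24 to 8.72 on the other mutant arrays and 8.35 to 8.58 in wild type. Their part in the dnj-14 value was not tested.

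The 8 subunit genes of the CCT chaperonin showed the narrowest band of differences of the compartment groups in the reported fit. The rank did not hold with each array left out. Without mutant replicate 1 the CCT genes ran from -0.05 to 0.064 and the cytosolic DNJ genes from -0.062 to 0.027. In the reported fit the CCT log2 differences ran from -0.04 for cct-3 to 0.03 for cct-6, with a median of 0.009 and cct-8 at 0.015. Adjusted p was between 0.942 and 0.995. The second probe set of cct-6 read -0.125, outside that band. Each of cct-3 and cct-8 was measured by 1 probe set of much lower level than the other subunits. They averaged 7.475 and 7.528 in the mutant, within the range of the mutant array medians (7.44 to 7.59). The next lowest, cct-7, averaged 10.495. Values of cct-1 were 12.28, 12.24, 12.32 and 12.28 in the mutant and 12.27, 12.35, 12.15 and 12.30 in wild type. Those of cct-5 were 12.04, 12, 11.95 and 11.89 in the mutant and 12.11, 12.10, 11.64 and 12.06 in wild type. On these leading probe sets wild-type replicate 3 held the lowest value of all 8 arrays. On a further probe set of each gene mutant replicate 3 was the lowest, at 11.76 for cct-1 and 11.81 for cct-5. The remaining probe set of cct-1 was again lowest on wild-type replicate 3, at 11.13. The interval was widest for cct-7, from -0.35 to 0.36, whose mutant values of 10.66, 10.44, 10.78 and 10.10 spread more than those of any other chaperone in the mutant (SD 0.299). The intervals of the other 7 stayed between -0.255 and 0.240. Median centring lowers every difference by 0.09 and put all 8 below wild type with a median of -0.081, and so did quantile normalization with a median of -0.045. The CCT genes thus had no direction that holds under each scaling.

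None of the 6 ER chaperone genes passed the test, and they spread widely among the mutant arrays. The BiP gene hsp-4 read 11.22, 11.09, 11.35 and 10.84 in the mutant and 11.26, 11.16, 10.91 and 11.10 in wild type. Both the highest and the lowest of these 8 values were mutant, at replicates 3 and 4. The difference was 0.02 (SE 0.120, 95% confidence interval -0.25 to 0.29, adjusted p = 0.982). The other BiP gene, hsp-3, read 11, 10.72, 10.74 and 10.33 in the mutant and 10.94, 10.78, 10.48 and 10.65 in wild type, a difference of -0.02 (SE 0.147, adjusted p = 0.986). Again mutant replicate 4 was the lowest array.

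The J-domain genes of the ER lay between -0.03 and 0.20. The gene of the P58IPK type, dnj-7, which in mammals assists BiP in the lumen, had the largest value of the group. It read 8.15, 8.01, 8.14 and 7.77 in the mutant against 7.91, 8.03, 7.50 and 7.85 in wild type. The ranges overlap, and the low wild-type replicate 3 set much of the distance, since the difference of 0.20 (SE 0.129, adjusted p = 0.696) was 0.088 without that array. The ERdj3 type dnj-20 differed by 0.09 (adjusted p = 0.856). The thioredoxin-fold dnj-27, of the ERdj5 type, and dnj-29, of the SEC63 type that works at the translocon, differed by -0.02 and -0.03 (adjusted p = 0.978 and 0.959). Over the 6 ER genes the median was 0.001, with 3 above and 3 below wild type.

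The 5 mitochondrial chaperone genes all lay below wild type, and none passed the test. Mitochondrial HSP70, encoded by hsp-6, read 11.95, 11.73, 11.50 and 11.78 in the mutant and 11.99, 11.86, 11.95 and 11.92 in wild type. Mutant replicates 2 to 4 lay below every wild-type array and replicate 1 did not. The mean was 11.74 ± 0.186 against 11.93 ± 0.055 (SD, n = 4 each). The difference of -0.19 (SE 0.096, 95% confidence interval -0.41 to 0.03) was the lowest of the 45 and had an adjusted p of 0.579. It was -0.11 without mutant replicate 3 and -0.28 after median centring, and the second probe set of hsp-6 read -0.09. Over 17 alternatives the hsp-6 difference ran from -0.315 to -0.11. Its unadjusted p in limma was under 0.05 in 6 of these, and its adjusted p was at least 0.129.

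The mitochondrial chaperonin gene hsp-60 read 10.93, 10.72, 11.10 and 10.53 in the mutant and 11.16, 10.98, 10.89 and 10.83 in wild type. Mutant replicates 1 and 3 lay within the wild-type range, and replicates 2 and 4 below it. The difference was -0.15 (SE 0.128, adjusted p = 0.792), and its second probe set read -0.01. Without mutant replicate 4 the difference was -0.048, without mutant replicate 3 it was -0.238 and without wild-type replicate 1 it was -0.08. For dnj-21, of the TIM14 type in the import motor, the difference was -0.14 (adjusted p = 0.708), with mutant values from 9.66 to 9.78 and wild-type values of 9.80, 9.74, 10.10 and 9.72. Without wild-type replicate 3, the highest of these, it was -0.05. The TID1 type dnj-10 differed by -0.03 and dnj-15, of the HSCB type that serves iron-sulfur cluster assembly, by -0.02. The median of the 5 was -0.14. It was -0.05 without wild-type replicate 3 and -0.05 without mutant replicate 4, and -0.03 with array weights, where 3 of the 5 lay below wild type. Without mutant replicate 3 or 4, 4 of the 5 did, as they did without mutant replicates 1 and 4 together.

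**Figure D2:**
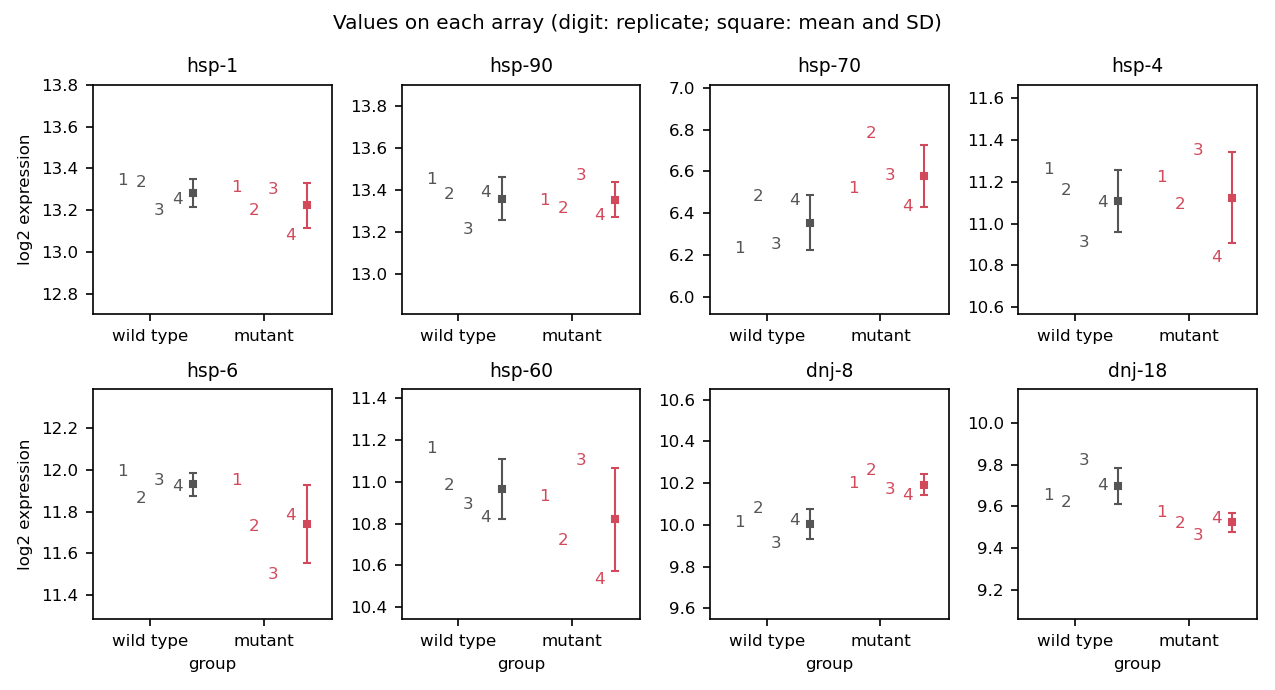
Log2 expression (y axis, a window of equal height in each panel) of 8 chaperone genes on the wild-type and mutant arrays. Digits mark the replicate and squares the mean with its SD (n = 4). The groups overlap for all but dnj-8 and dnj-18, and the hsp-6 and hsp-60 values spread more in the mutant than in wild type.

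The 16 remaining DNJ genes were not placed in a compartment here, and they include both genes whose groups did not overlap. The gene dnj-8 encodes a J-domain protein. It read 10.20, 10.26, 10.17 and 10.14 in the mutant and 10.01, 10.08, 9.91 and 10.02 in wild type. Every mutant array lay above every wild-type array, by at least the step from 10.08 to 10.14. The difference was 0.19 (SE 0.067, 95% confidence interval 0.04 to 0.34), a 1.14-fold ratio, with an unadjusted p of 0.0201 and an adjusted p of 0.369. That value belongs to a single probe set. The other probe sets of dnj-8 read -0.06 and 0.02 (adjusted p = 0.914 and 0.979), and the mean of all 3 differed by 0.047. By their suffixes all 3 may read more than 1 transcript. With array weights dnj-8 passed (difference 0.22, adjusted p = 0.0405), as did 1423 of all 22548 probe sets, against 150 without weights.

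For dnj-18 the mutant values were 9.57, 9.52, 9.46 and 9.54, and the wild-type values 9.65, 9.62, 9.82 and 9.70. Every mutant array lay below every wild-type array. The difference was -0.18 (SE 0.070, 95% confidence interval -0.33 to -0.02), with an unadjusted p of 0.0324 and an adjusted p of 0.439. It was -0.27 after median centring (adjusted p = 0.195) and -0.13 without wild-type replicate 3 (adjusted p = 0.627). A single probe set, with no suffix, measured it.

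Among the others, dnj-2 differed by -0.13 (adjusted p = 0.590), dnj-4 by -0.10 (adjusted p = 0.751), dnj-26 by -0.09 (adjusted p = 0.778) and dnj-23 by -0.09 (adjusted p = 0.780). Values of dnj-2 ran from 10.02 to 10.19 in the mutant and from 10.14 to 10.25 in wild type, where only mutant replicate 3 reached the wild-type range. Those of dnj-4 were 8.91, 8.92, 8.89 and 8.87 in the mutant and 9.08, 8.81, 9.10 and 9.01 in wild type. The mutant values of dnj-4 lay within the wild-type range. Over the 16 genes the median was -0.07, with 11 below and 5 above wild type, and it was -0.041 without wild-type replicate 3. The only chaperone in the dimmest 25% of probe sets, dnj-24, belongs to this group and differed by 0.10 (adjusted p = 0.799).

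A second reading was available for 24 of the 45 genes, which had 27 further probe sets. None of these passed at an adjusted p under 0.05, and none at an unadjusted p under 0.05, the smallest being 0.157. Their log2 differences ran from -0.125 to 0.155. Probe sets of a gene differed from its leading probe set by a median of 0.07 and by at most 0.25, in dnj-8. In 9 genes a further probe set had the opposite sign, namely hsp-110, cct-1, cct-4, cct-6, cct-7, dnj-5, dnj-8, dnj-16 and dnj-23. The hsp-90 probe sets, at -0.005 and -0.008, and those of dnj-12, both at -0.04, were among the closest pairs. Of the 45 leading probe sets 23 have the suffix _x_at or _s_at. Of the 27 genes read by a probe set without such a suffix, 0 were called by limma and 1, dnj-18, had an unadjusted p under 0.05.

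**Figure D3:**
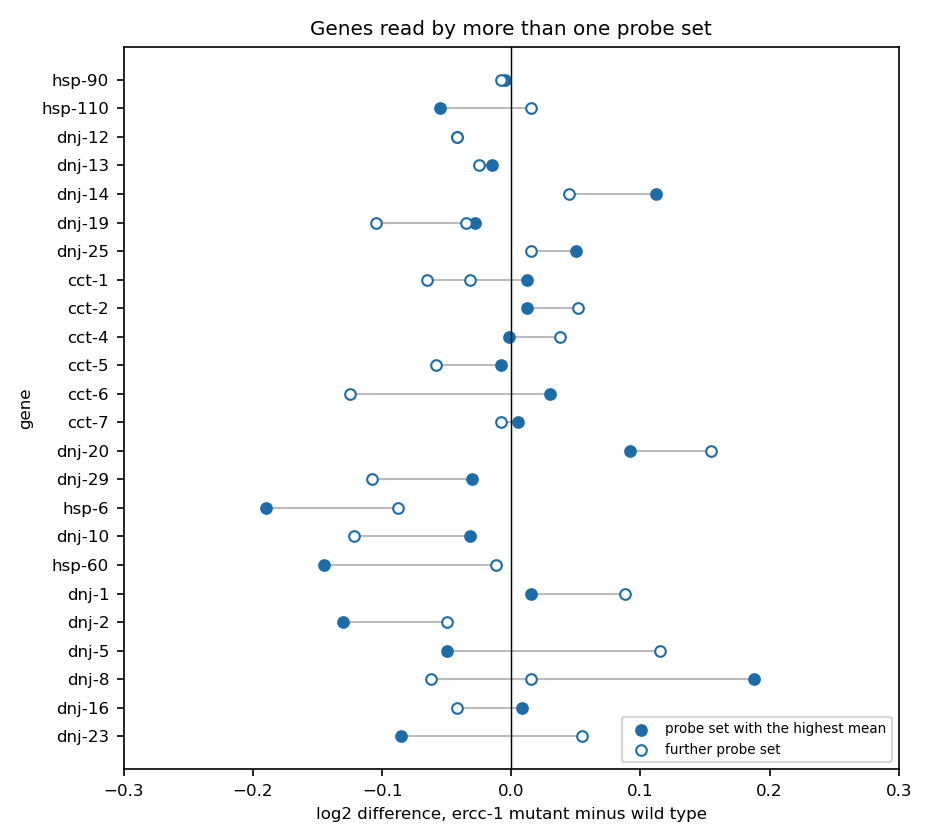
Log2 difference (x axis, mutant minus wild type) of every probe set of the 24 chaperone genes that have more than 1, with the leading probe set filled and further ones open. All points lie between -0.19 and 0.188, and the longest line is that of dnj-8.

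Single arrays stood apart within each strain, by the leading probe sets and with ties left out of the counts. On wild-type replicate 3, 6 of the 8 CCT genes and 5 of the 6 ER genes had their lowest wild-type value, and 20 of the 45 chaperones in all (44.4%, against 22.1% of all genes). The median deviation from the wild-type mean was there -0.161 for CCT and -0.147 for the ER group. The 16 unplaced DNJ genes went the other way on that array, with 10 at their highest wild-type value (62.5%, against 37.7% of all genes) and a median of 0.104, where all genes had a median of 0.035. On mutant replicate 4 all 4 cytosolic HSP70, HSP90 and HSP110 genes and 4 of the 6 ER genes were at their lowest mutant value (25.6% of all genes were), with a median of -0.196 for the ER group. On mutant replicate 1, 5 of the 6 ER genes were at their highest mutant value (31.1% of all genes were), with a median of 0.241. The ER median was also highest on replicate 1 among the wild-type arrays, at 0.12. Leaving out mutant replicate 4 put all 6 ER differences above 0, at a median of 0.097. These counts and medians are descriptions and were not tested.

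Markers moved with some of these arrays. The 3 body wall muscle markers averaged 11.32 on mutant replicate 1, 10.14 to 10.76 on the other mutant arrays and 10.04 to 10.62 in wild type. The 3 pharynx markers averaged 8.36 on mutant replicate 1, 7.52 to 7.94 on the other mutant arrays and 7.23 to 7.84 in wild type. Wild-type replicate 1 was the highest wild-type array for both, at 10.62 for muscle and 7.84 for pharynx. On mutant replicate 4 all 23 msp genes had their highest mutant value. Germline markers ranged from 10.59 to 10.84 in the mutant and from 10.66 to 10.81 in wild type, and oocyte markers from 12.14 to 12.23 and from 12.05 to 12.28. No value of these marker genes was listed at 0. Their part in the chaperone values was not tested.

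**Figure D4:**
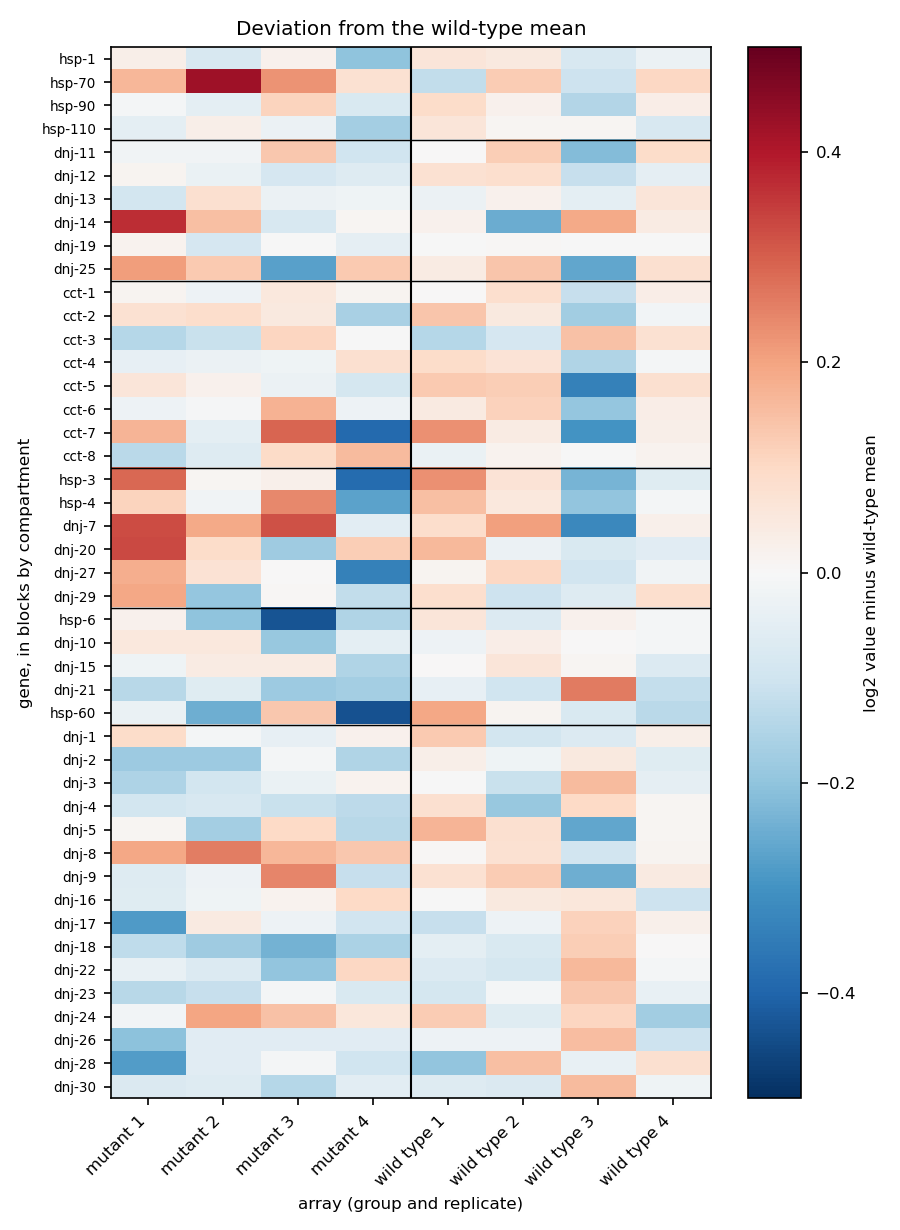
Log2 value minus the wild-type mean of the same gene, for 45 chaperone genes (rows, in blocks in the order cytosolic HSP70, HSP90 and HSP110, cytosolic DNJ, CCT, ER, mitochondria, other DNJ) on 8 arrays (columns). Blue blocks stand out for CCT and ER genes on wild-type replicate 3 and for ER genes on mutant replicate 4, and dnj-8 is red on all 4 mutant arrays.

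**Figure D5:**
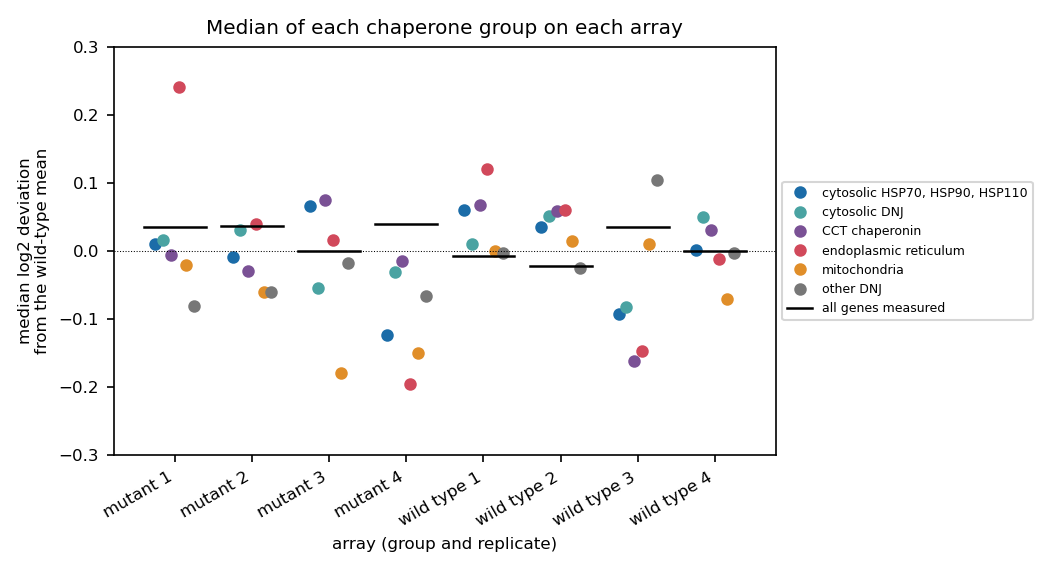
Median over each chaperone group of the log2 deviation from the wild-type mean (y axis) on each array (x axis), with a black line for the median over all genes measured. The ER group runs from -0.196 on mutant replicate 4 to 0.241 on mutant replicate 1, and in every group the mutant medians overlap the wild-type medians. The closest to separate are the unplaced DNJ genes, from -0.081 to -0.018 in the mutant and from -0.025 to 0.104 in wild type.

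The median SD over the mutant arrays was 0.213 for the ER group, 0.114 for mitochondria, 0.105 for CCT, 0.096 for cytosolic HSP70, HSP90 and HSP110, 0.083 for cytosolic DNJ and 0.074 for the unplaced DNJ genes, against 0.151 over all genes. Over wild type it was 0.129, 0.055, 0.133, 0.085, 0.125 and 0.109 in the same order, against 0.111 over all genes. Mutant arrays spread more than wild-type arrays in 5 of 6 ER genes and 4 of 5 mitochondrial genes, in 3 of 4 cytosolic HSP70, HSP90 and HSP110 genes, 4 of 6 cytosolic DNJ genes, 2 of 8 CCT genes and 3 of 16 unplaced DNJ genes. They did so in 67.0% of all genes. The largest SDs over mutant arrays were those of cct-7 (0.299), hsp-3 (0.276) and hsp-60 (0.248), and over wild type those of dnj-7 (0.228), cct-5 (0.226) and cct-7 (0.220). These spreads do not by themselves set the widths of the intervals above. In limma the variance of a gene is pooled over both groups and moderated by eBayes with those of all probe sets. The difference in spread between compartments was not tested.

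Cofactors and regulators of the same machinery were taken from lists of genes outside the 45. Of 18 cochaperones and heat shock regulators of the cytosol 0 were called by limma. At an unadjusted p under 0.05 there were 2, against 10.5% of all genes. The BAG2-type cochaperone gene unc-23 read from 8.52 to 9.06 in the mutant and from 8.25 to 8.5 in wild type, without overlap. Of all genes 5.01% were higher in the mutant without overlap. The unc-23 difference was 0.39 (SE 0.124, adjusted p = 0.292). It comes from the leading of its 2 probe sets, and the other is not given here. The prefoldin subunit gene pfd-4 read from 10.71 to 11.08 in the mutant and from 11.04 to 11.38 in wild type, a difference of -0.26 (SE 0.112, adjusted p = 0.493). Prefoldin hands unfolded actin and tubulin to CCT. Of its 6 subunit genes, looked at together after their values were seen, 5 lay below wild type, with a median of -0.11. Among all genes 39.7% lay below, with a median of 0.03. All prefoldin genes but pfd-2 had their highest wild-type value on replicate 3, as 37.7% of all genes did. The prefoldin tally was not tested.

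Of 16 ER folding and stress genes, which include the sensors ire-1, pek-1 and atf-6 and the factor xbp-1, 0 were called by limma and 0 had an unadjusted p under 0.05. Smallest in p were the HRD1 ubiquitin ligase gene sel-11 at -0.13 and the STCH-type HSP70 gene stc-1 at 0.10 (adjusted p = 0.696 and 0.761). The list's median was 0.05. Of 9 genes of mitochondrial folding and stress, among them the factor atfs-1, 0 were called by limma and 0 had an unadjusted p under 0.05. The peptide exporter gene haf-1 differed by -0.19 and the prohibitin gene phb-2 by -0.16 (adjusted p = 0.568 and 0.616), and the list's median was -0.002.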

How the data were processed

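The authors deposited 1 table of log2 expression with 1 value per probe set and array. The log base is not stated and was inferred from values between 0 and 14.38. Affymetrix Expression Console 1.1 made the values, per the submitters' processing notes. The sources used here do not give its settings. The table was used without further normalization. The platform annotation gave 20766 of 22548 probe sets 1 gene symbol, 887 several and 895 none. Gene identifiers of all 45 chaperones were found in RefSeq (assembly WBcel235), which changed 0 symbols. No sequence was used here.

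Mutant and wild type (n = 4 each, which limits the precision) were compared in R 4.3.3 with limma 3.58.1, whose lmFit and eBayes gave a two-sided test, with Benjamini-Hochberg adjustment over 22548 probe sets and a threshold of 0.05. The fit was tested on simulated data. The chaperone set, the compartment groups and the cofactor lists were chosen with earlier results of these data known, so lists are described by counts and medians and were not tested. Compartments were assigned from background knowledge, and other DNJ genes were left unplaced. Text names all placed genes, the 6 unplaced DNJ genes with the smallest p, the 2 cofactors of each list with the smallest p, genes with an array that stands apart, and the 3 with the largest SD in each group. Further genes (dnj-24, and those with probe sets of opposite sign) were named after their values were seen. The alternatives tried were median centring, quantile normalization, dropping dim or suffixed probe sets, a trended robust variance, array weights, a replicate block, the mean of all probe sets of a gene, a threshold of 0.1, leaving out each array, and, added after the data were seen, leaving out mutant replicates 1 and 4.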

Additional observations from a re-analysis of the deposited data

Results flagged for a closer look

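In 7 of 90 sets of 4 values (45 genes in each strain) 1 array stood apart from the other 3 by more than Dixon's critical share of the range, where chance gives about 5%, or 4.5 sets. The CCT genes, 8 of the 45, gave 4 of the 7, on different arrays and in both directions. Wild-type replicate 3 read 11.64 for cct-5, against 12.06 to 12.11 on the other wild-type arrays. Mutant replicate 4 read 11.63 for cct-2 against 11.84 to 11.88, and 12.29 for cct-4 against 12.17 to 12.19. Mutant replicate 3 read 11.97 for cct-6 against 11.77 to 11.79, and 9.31 for the auxilin gene dnj-25 against 9.71 to 9.79. Mutant replicate 1 read 8.89 for dnj-26 against 9.04 on each of the other mutant arrays. Wild-type replicate 2 read 11.25 for dnj-19 against 11.24 on each of the others, a gap of the last deposited decimal. All of these are readings of the leading probe sets. On the second probe set mutant replicate 4 was again the lowest mutant array for cct-2 (11.07). For cct-4 it was the lowest there (11.99) and not the highest. Mutant replicate 3 read 11.45 there for cct-6 and 8.68 for dnj-25, neither the highest nor the lowest mutant value. Wild-type replicate 3 read 11.95 there for cct-5, against 11.97 to 12.06.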

How the results depend on the processing

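Calls were 0 of the 45 chaperones at a threshold of 0.1 and in 16 of 17 other alternatives. With array weights there were 2, dnj-8 and hsp-70, with 6 at an unadjusted p under 0.05 (3 in the reported fit) and a mitochondrial median of -0.032. Calls over all 22548 probe sets rose in that setting from 150 to 1423. Median centring gave 6 at an unadjusted p under 0.05 and medians of -0.110 over all 45, -0.120 for cytosolic HSP70, HSP90 and HSP110, -0.098 for cytosolic DNJ, -0.081 for CCT, -0.228 for mitochondria and -0.164 for unplaced DNJ genes. Without _x_at and _s_at probe sets 1 had an unadjusted p under 0.05, with a median of -0.021 for unplaced DNJ genes. Leaving out 1 array gave between 0 and 4 at an unadjusted p under 0.05 and mitochondrial medians from -0.178 to -0.048. Without mutant replicates 1 and 4 the latter was -0.068. The cause of these moves was not tested, except that centring lowers every difference by 0.09. In 26 of 45 genes the sign turned under at least 1 alternative, and in 18, among them hsp-6, hsp-70, dnj-8 and dnj-18, it did not. The other gene, dnj-11, had a difference of 0.

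The replicate block left 0 chaperones called and 2 at an unadjusted p under 0.05, dnj-8 and hsp-70, and moved the calls over all probe sets from 150 to 125. Same-numbered arrays correlated by 0.473, 0.014, 0.04 and 0.201 in their deviations from the group means. The value of 0.473, for replicates 1, was the highest between any mutant and wild-type array. Mutant replicates 2, 3 and 4 correlated best with wild-type replicates 1, 2 and 3 (0.075, 0.118 and 0.252). The numbers were not taken to pair the arrays, and whether replicates 1 share a batch was not tested. With 4 arrays a group, precision is limited to the intervals given.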
